A study of Mus musculus with 4 samples.

Results

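Lef1, Tcf7, Axin2, Apcdd1, Notum, Nkd1, Znrf3 and Rnf43 are transcription factors, target genes and feedback inhibitors of Wnt/beta-catenin signalling. These 8 genes were read by their symbols from the 23282 entries of each count table, where each symbol stood on 1 line and all 8 were found. They were selected on their levels in this comparison, of endothelial cells (ECs, which form the inner wall of vessels) between the dura mater, the outer membrane under the skull, and the brain parenchyma. Each tissue had 2 libraries, replicates 1 and 2. All mice were C57BL/6J, aged 8 weeks, and no transgene or treatment was named for any of them. Cells carrying CD31 and lacking CD45 and TER-119 had been sorted, and brain ECs alone were first enriched with magnetic beads, so that step and the tissue cannot be told apart. How many mice went into a library, and whether libraries came from separate mice, is not given in the sources used here, so the spread between replicates may be technical. Since measured values of the comparison chose the genes, their differences between the tissues are given as a description. Tests were run over all genes, but their p-values for these genes are not evidence of a difference. Counts of genes past a threshold are printed beside the share of all genes past it, with nothing read from them.

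Wnt ligands and Norrin bind Frizzled receptors and the co-receptors Lrp5 and Lrp6, which keeps beta-catenin from being degraded so that it can act in the nucleus with the DNA-binding factors of the TCF/LEF family. Several of the genes that this switches on act back on the pathway, as scaffolds of the degradation machinery, as enzymes that inactivate the ligand or as ligases that remove the receptor, so their transcripts are widely used as readouts of the pathway. In brain ECs the pathway is known for forming and keeping the blood-brain barrier, whereas vessels of the dura mater lack that barrier.

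The libraries held 13518973 to 16096203 counts. Between 6608 and 9835 symbols reached 64 counts, the largest number in dura mater replicate 2, and the common biological coefficient of variation over the 9347 genes tested was 1.39. The 10 endothelial markers (among them Pecam1, Cdh5 and Kdr) were all counted and summed to 9512 and 12117 CPM (counts scaled to a common library size) in brain ECs and 8182 and 10417 CPM in dura mater ECs. The 10 barrier genes of brain ECs (among them Cldn5, Slc2a1 and Mfsd2a) summed to 24025 and 21086 CPM in brain ECs against 2971 and 3413 CPM in dura mater ECs. Of the marker lists of other cells, the erythroid (7 of 8 symbols found, 5 counted) and oligodendrocyte (7 of 10 counted) sums were higher in both brain libraries and the fibroblast (10 of 10 counted), lymphatic endothelial (6 of 6 counted) and T cell (3 of 10 counted) sums in both dura mater libraries.

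Windows from 250 bases before to 50 bases after a transcription start in RefSeq (GRCm38.p6) were used. Notum, Znrf3 and Apcdd1 had none among those used, which for Apcdd1 does not show that RefSeq holds none. The windows used were 10 in all and came from 5 of the 8 genes, Lef1, Tcf7, Axin2, Nkd1 and Rnf43. They were searched on both strands for the heptamer ATCAAAG as well as for the heptamer TTCAAAG, the heptamer TACAAAG and the heptamer AACAAAG, which share the core CAAAG of TCF/LEF sites, and for the GC box GGGCGG. The 250 bases before the start are shown for Axin2, Lef1 and Nkd1, with matches of either kind in capitals. These are the 3 genes with a window used here and at least 64 counts in both brain libraries. For Lef1 the first and the last of 4 annotated starts are shown, and the start of Nkd1 in RefSeq lies inside the span given for the gene further on.
Axin2, chr11:108920099-108920348, plus strand: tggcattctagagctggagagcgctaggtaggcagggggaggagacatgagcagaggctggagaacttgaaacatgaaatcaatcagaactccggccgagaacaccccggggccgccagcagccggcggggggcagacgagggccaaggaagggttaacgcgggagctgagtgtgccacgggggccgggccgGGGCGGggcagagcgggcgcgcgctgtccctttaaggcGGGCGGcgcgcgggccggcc
Lef1, first start, chr3:131110047-131110296, plus strand: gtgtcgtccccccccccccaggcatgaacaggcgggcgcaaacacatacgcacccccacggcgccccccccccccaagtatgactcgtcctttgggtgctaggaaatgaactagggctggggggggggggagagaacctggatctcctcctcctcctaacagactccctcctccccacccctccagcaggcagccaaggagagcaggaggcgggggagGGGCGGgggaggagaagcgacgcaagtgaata
Lef1, last start, chr3:131156044-131156293, plus strand: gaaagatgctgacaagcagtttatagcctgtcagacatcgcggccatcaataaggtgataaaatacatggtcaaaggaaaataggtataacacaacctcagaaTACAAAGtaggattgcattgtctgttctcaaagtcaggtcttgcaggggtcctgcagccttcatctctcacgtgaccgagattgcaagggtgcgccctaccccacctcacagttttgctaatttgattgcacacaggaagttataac
Nkd1, chr8:88527383-88527632, plus strand: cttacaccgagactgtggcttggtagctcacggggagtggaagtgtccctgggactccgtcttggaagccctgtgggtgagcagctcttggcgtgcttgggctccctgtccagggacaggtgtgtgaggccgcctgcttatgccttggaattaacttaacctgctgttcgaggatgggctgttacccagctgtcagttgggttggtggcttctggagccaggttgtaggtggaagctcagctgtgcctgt

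A TCF/LEF heptamer was present in 1 of the 10 windows, as TACAAAG on the forward strand at the last start of Lef1, with its first base at −147 relative to the start. Among all 32851 windows of this kind 16.9% held at least 1 of the 4 heptamers, and 3.63% held TACAAAG. The GC box occurred in 6 of the 10 windows, those of Axin2, Tcf7 and the first 3 starts of Lef1, against 35.7% of all windows. The first 2 windows of Lef1 share 274 bases, so the windows are not independent. Matches in letters are not binding sites, and a window without a match says only that these letters are not in it.

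Lef1 and Tcf7 encode the DNA-binding partners of beta-catenin. Lef1 (chromosome 3, 131110471 to 131224356, plus strand, GRCm38) had 2378 and 1253 counts in brain ECs against 2 and 409 in dura mater ECs, which is 163 and 94.3 CPM against 0.148 and 24.6 CPM after scaling by the trimmed mean of M values (TMM). Both dura mater libraries lay below both brain libraries, but they were far apart from each other. The means were 129 ± 48.7 CPM (SD, n = 2) in brain ECs against 12.4 ± 17.3 CPM (SD, n = 2) in dura mater ECs, a 10.4-fold lower mean in dura mater ECs and a log2 fold change of −3.35 (SE 1.98). With dura mater replicate 2 left out the log2 fold change was −8.79, and with dura mater replicate 1 left out it was −2.50, so its size depended on a single library. In these bulk samples fewer cells with a transcript and less of it per cell cannot be told apart. Tcf7 (chromosome 11, 52252371 to 52283014, minus strand) had 0 and 1 counts in brain ECs against 1 and 0 in dura mater ECs. It was under the limit of 3 counts that a count of 0 allows, 0.181 to 0.226 CPM depending on the library, a limit that covers counting error only. Lef1 and Tcf7 are also known as genes of T lymphocytes. Of 10 T cell markers 7, among them Cd3e, Cd3d, Cd3g, Cd2 and Cd8a, had 0 counts in all 4 libraries. Lck had 38 counts and Cd4 had 1 in dura mater replicate 1, and both had 0 in the other libraries. Il7r had 0 and 6 counts in brain ECs against 6 and 75 in dura mater ECs. The 10 markers summed to 0 and 0.451 CPM in brain ECs against 3.33 and 4.52 CPM in dura mater ECs.

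**Figure D1:**
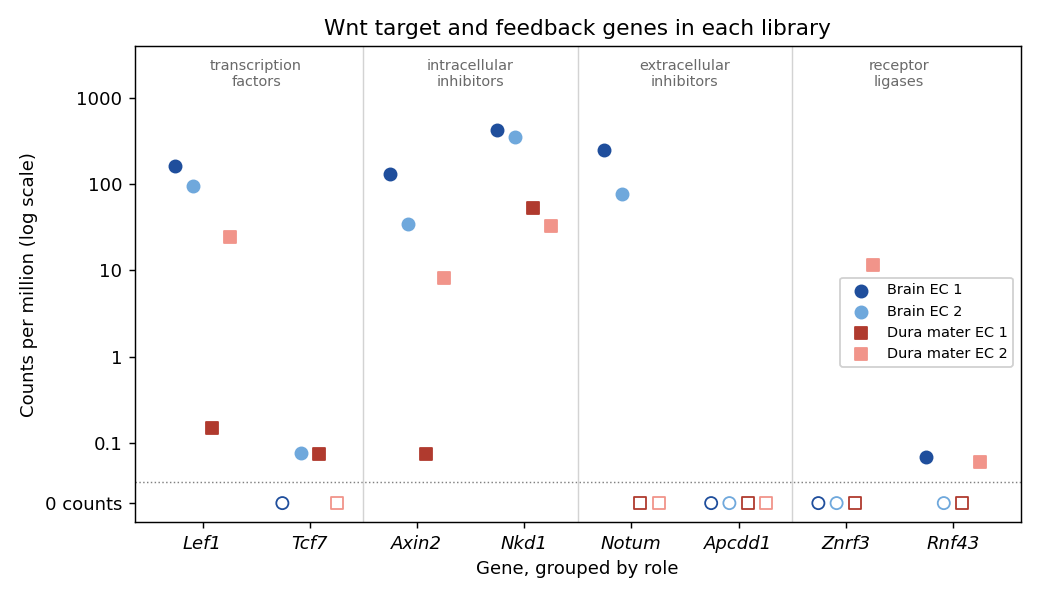
Each point is the level of a gene in 1 library in TMM-scaled CPM on a log axis, with blue circles for brain ECs, red squares for dura mater ECs and open symbols below the dotted line for libraries with 0 counts. For Lef1, Axin2, Nkd1 and Notum both brain libraries lie above both dura mater libraries, and Tcf7, Apcdd1 and Rnf43 stay at 0 or 1 counts.

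Axin2 and Nkd1 encode inhibitors inside the cell. Axin2, a scaffold of the complex that marks beta-catenin for degradation and a standard readout of the pathway (chromosome 11, 108920349 to 108950783, plus strand), had 1931 and 458 counts in brain ECs against 1 and 134 in dura mater ECs. In CPM this was 133 and 34.5 against 0.0739 and 8.07. Its order over the 4 libraries was that of Lef1, with brain replicate 1 highest and dura mater replicate 1 lowest. The mean was 83.5 ± 69.3 CPM (SD, n = 2) in brain ECs against 4.07 ± 5.66 CPM (SD, n = 2) in dura mater ECs, a 20.5-fold lower mean and a log2 fold change of −4.29 (SE 2.35). Without dura mater replicate 2 the log2 fold change was −8.58, and without brain replicate 1 it was −3.11. The 2 brain libraries themselves differed 3.85-fold.

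Nkd1 binds Dishevelled, the protein that relays the receptor signal (chromosome 8, 88521354 to 88594884, plus strand). It had 6227 and 4717 counts in brain ECs against 710 and 545 in dura mater ECs, or 427 and 355 CPM against 52.5 and 32.8 CPM. It was the 1 gene of the 8 with at least 64 counts in every library, and replicates lay close together in both tissues. Its mean was 391 ± 51.2 CPM (SD, n = 2) in brain ECs against 42.7 ± 13.9 CPM (SD, n = 2) in dura mater ECs, a 9.17-fold lower mean. The log2 fold change was −3.18 (SE 0.54), the smallest SE of the 4 genes tested. Over 15 alternative settings it stayed between −3.69 and −2.91.

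Notum and Apcdd1 encode inhibitors that act outside the cell. Notum, a secreted enzyme that removes the lipid of Wnt ligands (chromosome 11, 120653788 to 120661175, minus strand), had 3643 and 1015 counts in brain ECs and 0 counts in both dura mater libraries. Brain ECs were at 250 and 76.4 CPM, a mean of 163 ± 123 CPM (SD, n = 2), and the libraries differed 3.27-fold. Set against 3 counts in each dura mater library, Notum was at least 811-fold lower in dura mater ECs. The limit covers counting error only, not the spread between replicates. This limit was 380-fold without brain replicate 1 and 1242-fold without brain replicate 2. The same absence in both dura mater libraries, with at least 64 counts in both brain libraries, was found for 26 of the 23282 symbols. Notum had the highest mean CPM in brain ECs of these 26, followed by Lrrn3 with 97.5 CPM and Mmaa with 72.0 CPM, which were named after their values were seen. Apcdd1, a membrane protein that binds Wnt ligands and their receptors (chromosome 18, 62922231 to 62961179, plus strand), had 0 counts in each of the 4 libraries.

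Znrf3 and Rnf43 encode ubiquitin ligases of the cell surface that remove Frizzled receptors. Znrf3 (chromosome 11, 5276324 to 5444847, minus strand) was at 0 counts in each brain library and in dura mater replicate 1, with 189 counts, or 11.4 CPM, in dura mater replicate 2. It was the 1 gene of the 8 counted above the limit in dura mater ECs alone, and that rests on a single library. Counts of at least 64 in dura mater replicate 2 with 7 or fewer in dura mater replicate 1 were found for 2800 symbols, among them Lef1, Axin2 and Znrf3, and the reverse for 410. Rnf43 (chromosome 11, 87662722 to 87735539, plus strand) had 1 and 0 counts in brain ECs against 0 and 1 in dura mater ECs, under the limit of 3 counts.

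Exons of genes on the opposite strand overlap 29.4% (Notumos) and 8.72% (Myadml2os) of the exon length of Notum, 13.7% (Gm43352) of that of Lef1 and 3.80% (Gm11670) of that of Axin2. Since use of strand in the counting is not stated, these counts are uncertain as counts of 1 strand, although 0 of the last 500 exonic bases, where reads of a 3′ kit are expected to lie, were covered in any of the 3 genes.

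Over the 4 libraries, 4 of the 8 genes (Lef1, Axin2, Notum and Nkd1) passed the filter on low counts and were fitted, and Tcf7, Apcdd1, Znrf3 and Rnf43 were not. Notum passed through its counts in brain ECs alone. Lef1 and Axin2, with 2 and 1 counts in dura mater replicate 1, would not have passed on their dura mater counts. Only Nkd1 would have. The filter thus favoured lower values in dura mater ECs among the genes fitted, and nothing is read from their shared direction. The log2 fold change of all 4 was below 0, as for 50.2% of the 9347 genes tested, and none of their dura mater values overlapped with brain values, a pattern that 17.1% of genes tested showed in this direction. Their median log2 fold change was −3.82 against −0.01 over all genes tested. In the quasi-likelihood test of edgeR, 0 of the 4 passed an adjusted p under 0.05, where 0.182% of genes tested passed as lower in dura mater ECs and 0.610% in either direction. Notum and Nkd1 were under an unadjusted p of 0.05, with 2.97% of genes in this direction, and these 2 also passed the adjusted threshold in DESeq2, with 2.11% of genes, while limma-voom called 0 of the 4.

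**Figure D2:**
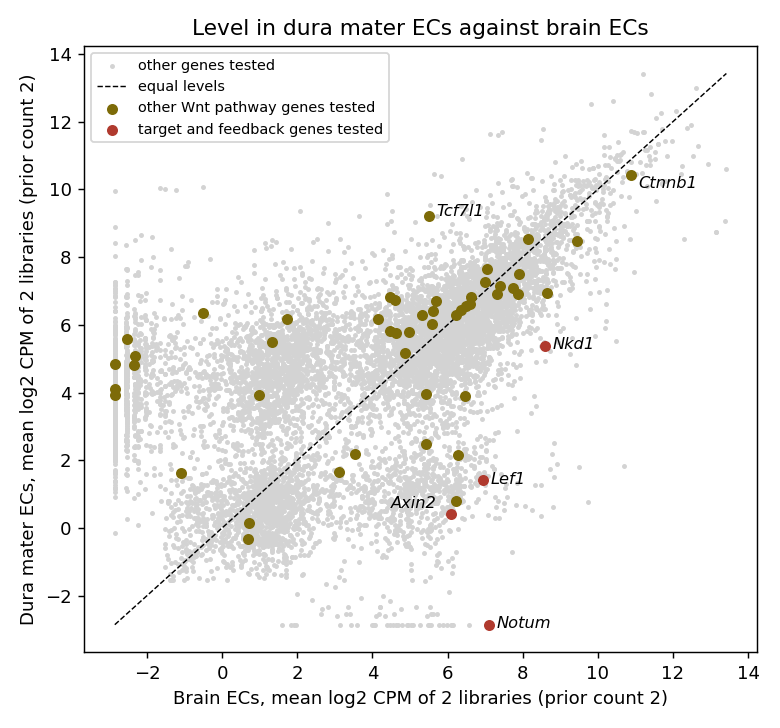
The mean log2 CPM of 2 dura mater EC libraries (vertical axis) is drawn against that of 2 brain EC libraries (horizontal axis) for all 9347 genes tested, with target and feedback genes in red, other Wnt pathway genes in brown and a dashed line for equal levels. Lef1, Axin2, Nkd1 and Notum lie below the line, Notum at the bottom edge with 0 counts in dura mater ECs, and Tcf7l1 lies above it.

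Summed over the 8 genes, levels were 973 and 560 CPM in brain ECs against 52.8 and 77.0 CPM in dura mater ECs, an 11.8-fold lower mean (767 ± 292 against 64.9 ± 17.1 CPM, SD, n = 2). The make-up of the sum differed between libraries. Nkd1 held 43.9% and 63.4% of it in brain ECs, 99.4% in dura mater replicate 1 and 42.6% in dura mater replicate 2. Within brain ECs, Lef1, Axin2, Notum and Nkd1 were each higher in replicate 1, by 1.73-, 3.85-, 3.27- and 1.20-fold. Among the 5096 symbols with at least 64 counts in both brain libraries, 48.9% were higher in replicate 1 and the median ratio was 0.976. The endothelial marker sum was lower in replicate 1 of brain ECs, and the sum of barrier genes was higher. The part of cell make-up in these differences was not tested.

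The genes with the most similar course over the 4 libraries were sought by the root-mean-square difference of centred log2 CPM. For Nkd1 these were Slc39a10 (difference 0.0354 on the log2 scale), with 11221 and 7960 counts in brain ECs against 1259 and 967 in dura mater ECs, and Gstk1 (0.173). For Lef1 they were Amz2 (0.0933), with 2687 and 1299 against 2 and 481 counts, and Acaa2 (0.160). Lysmd4 (0.210) and Pradc1 (0.236) were nearest to Axin2. Within a difference of 0.5 there were 66 genes for Lef1, 33 for Nkd1, 18 for Axin2 and 0 for Notum, whose nearest genes were Fntb (0.778) and Ldhd (0.806). With 4 libraries many genes share a course, and these names are a description only.

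The rest of the pathway was read from 107 further genes in 7 lists by role. Of these, 83 had a count in some library, 58 reached 64 counts in some library and 48 passed the filter. Of the 48, 17 had lower and 31 had higher values in dura mater ECs, with a median log2 fold change of 0.35. Some passed through their counts in dura mater ECs alone, among them Rspo3, Fzd5, Amer1, Axin1, Trabd2b and Nkd2. Adgra2, lower there, would not have passed on its dura mater counts. The filter thus bears on direction, and nothing is read from the directions, list medians or calls of these genes. In edgeR 0 of the 48 passed the adjusted threshold. At an unadjusted p under 0.05 there were 2 lower and 7 higher, beside 2.97% lower and 7.04% higher of all genes tested, and DESeq2 called 0 lower and 7 higher, beside 2.11% and 6.90%. Groups did not overlap for 8 lower and 16 higher genes, where 17.1% and 25.9% of all genes tested were of these kinds.

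Ligands were sparse in both tissues, as 8 of 20 had any count and 3 reached 64 counts. Wnt5a, known mainly for signalling without beta-catenin, was the 1 ligand tested, with 77.6 and 98.4 CPM in brain ECs against 47.1 and 4.64 CPM in dura mater ECs, with a log2 fold change of −1.76 (SE 1.46). R-spondins raise Wnt signalling by taking away Znrf3 and Rnf43. Rspo3, the 1 gene of that list of 7 that was tested, was at 0 counts in each brain library against 427 and 155 in dura mater ECs. By counting error alone it was at least 94.8-fold higher there, 43.3-fold without dura mater replicate 1 and 146-fold without dura mater replicate 2. The adjusted p was 0.466 in edgeR and 0.0399 in DESeq2.

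Receptors and co-receptors (18 listed, 11 tested) had a median log2 fold change of 0.20, with 4 lower and 7 higher and 0 past the threshold. Fzd5, a Frizzled receptor, was at 0 counts in each brain library against 391 and 132 in dura mater ECs. By counting error alone that is at least 85.4-fold more (36.8-fold without dura mater replicate 1 and 134-fold without dura mater replicate 2). Adgra2, a partner of the Wnt7 receptor complex of brain ECs, had 135 and 41.1 CPM in brain ECs against 0 and 21.6 CPM in dura mater ECs (8.16-fold lower mean), so that dura mater replicates again were far apart. Of its last 500 exonic bases, 73 are overlapped by Brf2 on the opposite strand, so its counts are uncertain where strand was not used. The co-receptor Lrp6, named after its values were seen, was at 69.3 and 98.0 CPM against 98.8 and 74.4 CPM, with overlapping groups. Fzd4, the receptor of Norrin and also named after its values were seen, ranged from 3.16 to 40.0 CPM in brain ECs and from 0.241 to 54.3 CPM in dura mater ECs. The spread between replicates thus exceeded the difference between tissues for both.

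Among secreted and surface inhibitors (15 listed, 2 tested), Trabd2b, a surface protease that cleaves Wnt ligands, had 2 and 0 counts in brain ECs against 550 and 317 in dura mater ECs. The ratio of summed counts, scaled for depth, was 401, with a 95% counting interval from 111 to 3315. That interval pools the libraries of a tissue and leaves out the spread between them. The adjusted p of Trabd2b was 0.466 in edgeR and 0.0248 in DESeq2. Kremen1, a receptor for Dickkopf inhibitors, had 22.0 and 39.1 CPM against 72.5 and 18.0 CPM, and the groups overlapped. Dkk1, Dkk2, Dkk3, Sfrp1, Sfrp2 and Wif1, secreted antagonists named after their values were seen, did not pass the filter. Dkk1 had 59 and Dkk3 334 counts in dura mater replicate 1, and Dkk2 had 54 in dura mater replicate 2. Each of these had 0 or 1 counts in every other library. Sfrp1, Sfrp2 and Wif1 had 2 counts or fewer in each library.

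Dishevelled and the destruction complex (16 listed, 13 tested) had 4 lower and 9 higher genes and a median of 0.61. Axin1, the relative of Axin2 that is not known as a target gene, was opposite to Axin2 in direction, with 0 and 1 counts in brain ECs and 1062 and 484 counts in dura mater ECs. The ratio of summed counts, scaled for depth, was 1429.6, with a 95% counting interval from 256 to 56504, which leaves out the spread between libraries. Amer1, which recruits Axin to the membrane, was at 0 counts in each brain library against 641 and 284 in dura mater ECs. By counting error alone that is at least 149-fold more (79.3-fold without dura mater replicate 1). Nkd2, the relative of Nkd1 and named after its values were seen, had 0 and 2 counts against 269 and 926 counts, higher in dura mater ECs where Nkd1 was lower. In edgeR none of Axin1, Amer1 and Nkd2 passed the adjusted threshold (adjusted p 0.389, 0.466 and 0.466), and in DESeq2 the adjusted p was 0.00049, 0.00447 and 0.0111, where 6.90% of all genes passed as higher. Axin1 and Amer1 were named for the largest fold changes in their list, so nothing is read from these values.

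**Figure D3:**
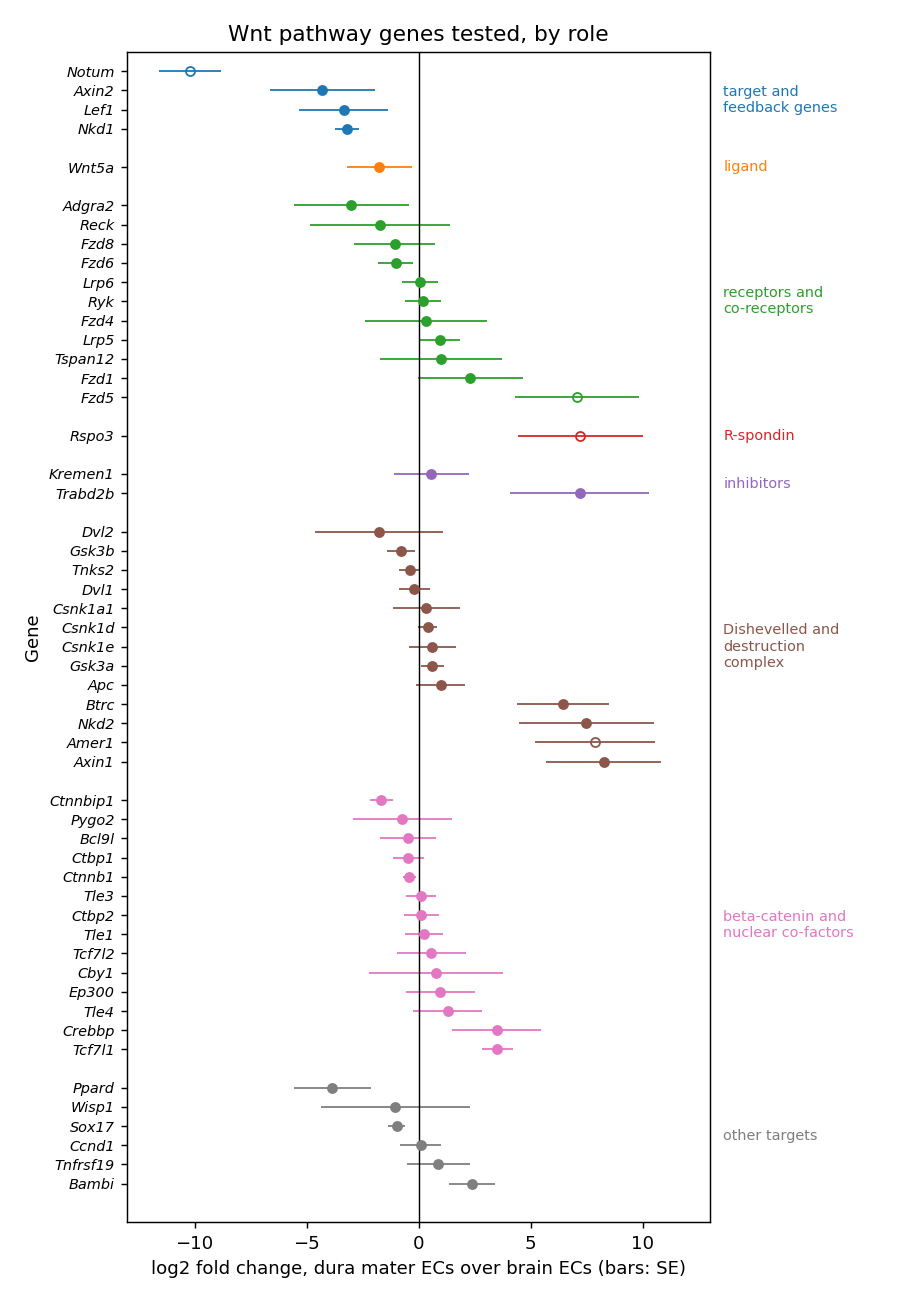
Points are fitted log2 fold changes of dura mater ECs over brain ECs for the 4 target and feedback genes and 48 other Wnt pathway genes that were tested, in rows by role, bars are the SE, and open points are genes with 0 counts in both libraries of a tissue, whose fitted value depends on the prior count. The 4 target and feedback genes lie at −10.20, −4.29, −3.35 and −3.18, and the list medians are −0.44 for other target genes (6 tested), 0.18 for nuclear co-factors, 0.20 for receptors, 0.61 for the destruction complex and 3.88 for inhibitors (2 tested), with single genes at −1.76 for ligands and 7.22 for R-spondins.

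In the nucleus, beta-catenin and its co-factors (17 listed, 14 tested) had 5 lower and 9 higher genes and a median of 0.18. Ctnnb1, which encodes beta-catenin and is named after its values were seen, was at 1759 and 2008 CPM in brain ECs against 1237 and 1553 CPM in dura mater ECs, a log2 fold change of −0.42 (SE 0.29). Tcf7l1, a TCF/LEF family member known mainly as a repressor of target genes, was opposite to Lef1 in direction. It had 370 and 1083 counts in brain ECs against 6663 and 12015 in dura mater ECs, or 25.4 and 81.5 CPM against 493 and 724 CPM. Its mean was 11.4-fold higher in dura mater ECs (608 ± 164 against 53.4 ± 39.7 CPM, SD, n = 2), with both dura mater libraries above both brain libraries and a fitted log2 difference of 3.52 (SE 0.69). That difference was 2.86 without brain replicate 1 and 4.52 without brain replicate 2. The adjusted p was 0.130 in edgeR and 3.3e-05 in DESeq2. Crebbp, a histone acetyltransferase that works with beta-catenin, had 12.2 and 0.752 CPM against 84.8 and 61.9 CPM (log2 fold change 3.48, SE 1.97). Tcf7l2, named after its values were seen, was at 9.06 and 65.2 CPM against 47.7 and 61.6 CPM, with overlapping groups.

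Other genes listed as targets (14 listed, 6 tested) were split, with 3 lower, 3 higher, a median log2 fold change of −0.44 and 0 past the threshold. Ppard, a nuclear receptor, was at 96.5 and 61.2 CPM in brain ECs against 2.22 and 8.25 CPM in dura mater ECs, a 15.1-fold lower mean (log2 fold change −3.86, SE 1.72), and its groups did not overlap. Bambi, a pseudoreceptor of the TGF-beta family, was at 21.5 and 22.5 CPM against 100 and 127 CPM, a 5.15-fold higher mean (log2 fold change 2.37, SE 1.02), and its groups did not overlap either. Sox17, an endothelial transcription factor named after its values were seen, was at 842 and 576 CPM against 379 and 338 CPM, a 1.98-fold lower mean. Sp5, a transcription factor also named after its values were seen, had 0 counts in all 4 libraries.

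**Figure D4:**
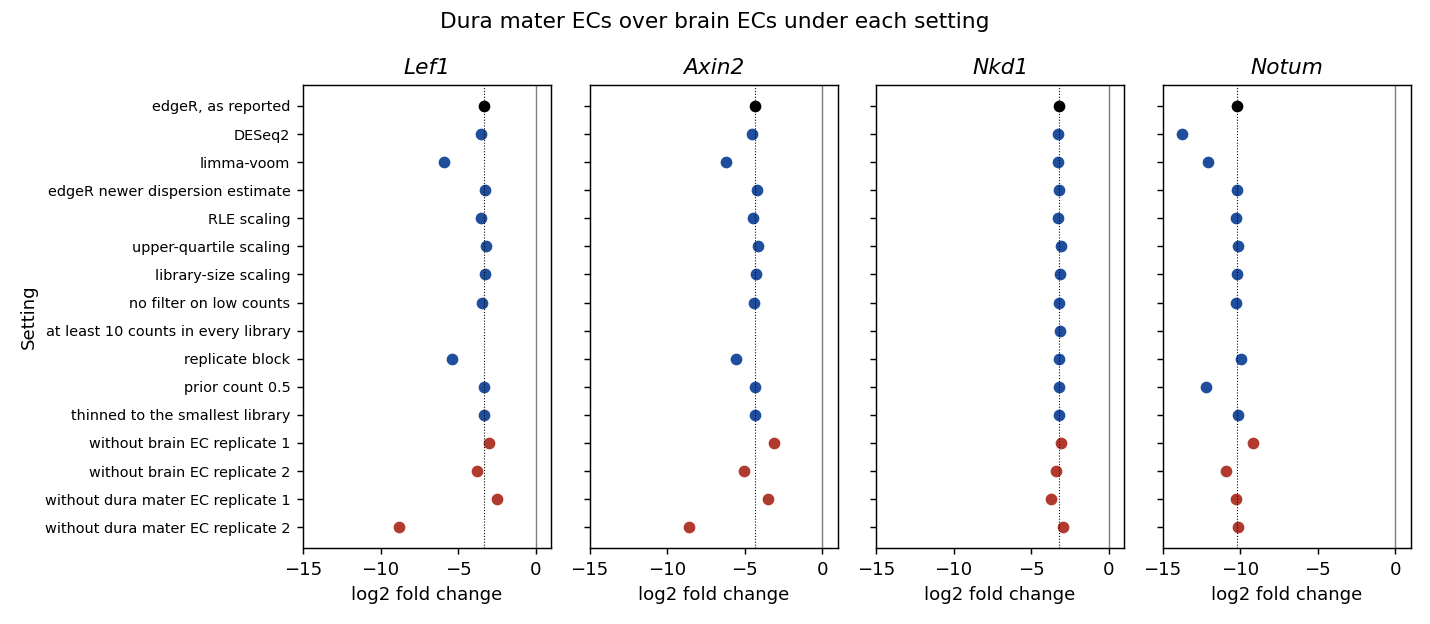
Log2 fold changes of dura mater ECs over brain ECs for Lef1, Axin2, Nkd1 and Notum are drawn for edgeR as reported (black, dotted line), other tests, scalings and filters (blue) and each library left out in turn (red), with a row per setting. All points lie below 0, those of Nkd1 between −3.69 and −2.91, while Lef1 and Axin2 move to −8.79 and −8.58 without dura mater replicate 2, and a setting with no point did not test that gene.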

How the data were processed

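RNA of sorted ECs was sequenced from 2 brain and 2 dura mater libraries made with a QuantSeq kit, which reads 3′ ends of polyadenylated transcripts. The authors deposited raw whole-number counts per gene symbol, with no scaling, for 23282 entries in each of 4 tables. The labels name mm10, Bowtie2 and edgeR, and the methods of the study name TopHat and cufflinks. The counting program, annotation and use of strand are not given in the sources used here. Groups were taken from sample titles.

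Counts were fitted over the whole table with the quasi-likelihood test of edgeR 4.0.16 (R 4.3.3, limma 3.58.1), TMM scaling, filterByExpr and tissue as the only term, with Benjamini-Hochberg adjustment over 9347 genes and a threshold of 0.05. It stands in for cufflinks, which needs alignments. Log2 fold changes give dura mater relative to brain (prior count 2), and their SE is the size of the change divided by the square root of F. CPM are counts scaled by TMM-adjusted library size. A count of 0 was given a limit of 3 counts per library. Fold limits from it and intervals of summed counts cover counting error only, not the spread between libraries. The 13518973 to 16096203 counts per library set the precision. Scripts were tested on simulated data. An exact permutation test of 2 against 2 libraries cannot go below p = 0.333, so none was run.

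The genes, the pathway lists and the marker lists were chosen with earlier results of these data known. Named pathway genes are, in each list, those past the threshold, the 2 tested genes of largest log2 fold change whose mean in the higher tissue reached 10 CPM, and, for each member with at least 64 counts in both libraries of a tissue, the 2 genes nearest in course. Positions are from GENCODE M21 (GRCm38, the same build as mm10). Alternatives were DESeq2 1.42.0, limma-voom, other scalings, dispersion estimates and filters, a replicate block, thinning, and each library left out. Wisp1 was read for Ccn4. Genes of other marker lists (leukocyte, mural, astrocyte and neuron) had sums that overlapped between tissues, though some single genes in them did not. Cd68 had 4 and 3 counts in brain ECs against 550 and 441 in dura mater ECs, and Kcnj8 had 0 and 0 against 468 and 410. C1qb went the other way, with 289 and 4 against 2 and 0.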

Additional observations from a re-analysis of the deposited data

How the results depend on the processing

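The log2 fold changes of Lef1, Axin2, Notum and Nkd1 stayed below 0 under each alternative that tested them (14 alternatives for Lef1, Axin2 and Notum and 15 for Nkd1), and the summed level stayed lower in dura mater ECs under each of its alternatives. The size was less stable. Lef1 ranged from −8.79 to −2.50, Axin2 from −8.58 to −3.11 and Notum from −13.77 in DESeq2 to −9.14. The median log2 fold change of all genes tested, −0.01 as reported, was 0.13 with upper-quartile scaling, 0.28 in limma-voom, 0.27 with no filter on low counts, 0.25 with a replicate block, 1.03 and 0.95 without brain replicates 1 and 2, and 0.14 and −0.19 without dura mater replicates 1 and 2, so values of single genes under these settings are relative to shifted medians. Limits of these values are the 2 libraries per tissue, the spread between replicates, and counts of 0 to 2 in dura mater replicate 1 for Lef1, Axin2 and Notum.

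As reported, edgeR called 57 of all genes (40 higher), 0 of the 8 genes and 0 of the pathway lists. Limma-voom called 80 genes (40 higher), RLE scaling 53, upper-quartile scaling 70, library-size scaling 58 and thinning 57, and each of these 5 settings called 0 of the 8 genes and 0 pathway genes. Other settings gave more calls. DESeq2 called 810 genes (620 of them higher in dura mater ECs), 2 of the 8 genes and 7 pathway genes. The newer dispersion estimate of edgeR called 306, 2 and 1, no filter on low counts called 326, 2 and 1, and at least 10 counts in every library called 141, 1 and 1. That filter left 1 of the 8 genes, Nkd1, and therefore 1 gene lower in dura mater ECs instead of 4. The calls were Notum and Nkd1 in DESeq2, with the newer dispersion estimate and with no filter, and Tcf7l1 was among the pathway genes in these 3 settings and with at least 10 counts. With each library left out in turn, calls ranged from 80 to 740 genes, from 1 to 4 of the 8 genes and from 0 to 6 pathway genes. All 4 of Lef1, Axin2, Notum and Nkd1 were called without brain replicate 2 (701 genes in all), Notum and Nkd1 without brain replicate 1 (740), and Notum alone without either dura mater library (80 and 97). With 1 library left in a tissue, that library is assumed to vary like those of the other tissue. The cause of these changes was not tested.

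A replicate block in edgeR gave calls for 224 genes, 2 of the 8 genes (Notum and Nkd1) and 1 pathway gene (Tcf7l1). Same-numbered libraries did not deviate from their tissue means in common (correlation −0.0208 across genes). With 2 libraries per tissue this cannot show whether the numbers pair the libraries.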
